A study of Mus musculus with 223 samples.

Results

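Prokr2 (ENSMUSG00000050558) and Slc15a2 (ENSMUSG00000022899), 2 of the 43629 genes counted in single Htr3a-GFP+ interneurons (INs), were followed from the embryonic cortex into the postnatal types. Both were listed for their rise from E18 to type 1 INs at P5, so they were chosen by their pooled RPM in that contrast, whose values are given as a description. The cells came from the cortices of Htr3a-GFP transgenic mice of both sexes on a C57BL/6 background, in which regulatory sequences of Htr3a drive eGFP in INs mostly of caudal ganglionic eminence (CGE) origin. The brains of embryos (E18) or pups (P2 and P5) of 1 age were pooled before sorting. GFP+ cells were captured on microfluidic chips, more than 1 each for E18 and P5, and their full-length cDNA was read in pairs, with no molecular identifiers. The 82 cells from E18 carry no type, while the authors placed each postnatal cell in type 1, 2 or 3 (22, 31 and 13 of the 66 cells at P2 and 34, 19 and 22 of the 75 cells at P5). The contrast that chose the genes therefore sets all E18 cells against a subset at P5.

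Prokr2 encodes prokineticin receptor 2, a receptor on the cell surface that couples to Gq and binds the secreted peptides PROK1 and PROK2. It is best known from the forebrain, where PROK2 from the olfactory bulb guides neuroblasts along the rostral migratory stream, and in people PROKR2 is one of the genes of Kallmann syndrome, a deficiency of gonadotropin-releasing hormone (GnRH) with loss of smell. Slc15a2 encodes PEPT2, a transporter that moves di- and tripeptides into the cell together with protons. PEPT2 has been described in the kidney and, in the brain, in choroid plexus and astrocytes. Type 1 INs are marked by Meis2 and share transcription factors with INs of the olfactory bulb.

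Prokr2 lies on the minus strand of mouse chromosome 2 (GRCm38, 132337733 to 132385447), with an open reading frame of 1143 bases in 2 coding exons, and no other gene overlaps it. Slc15a2 lies on the minus strand of chromosome 16 (36750177 to 36784962), with an open reading frame of 2220 bases in 22 coding exons. Gm8425, a processed pseudogene, sits inside it without touching an exon, so neither gene shares exons with a neighbour. The RefSeq start regions of both genes (GRCm38.p6, 250 bases before to 50 after the start, minus strand) are shown because the 2 genes appear in the same type, so that the DNA at their starts can be compared. The Prokr2 window is chr2:132385398-132385697 and the Slc15a2 window is chr16:36784913-36785212. Capitals mark every match, on either strand, to 6 motifs: MEIS (TGACAG), homeodomain (TAATTA), GC box (GGGCGG), ETS (CCGGAAGT), E-box (CAGCTG) and CRE core (TGACGT). No matches overlap.
Prokr2: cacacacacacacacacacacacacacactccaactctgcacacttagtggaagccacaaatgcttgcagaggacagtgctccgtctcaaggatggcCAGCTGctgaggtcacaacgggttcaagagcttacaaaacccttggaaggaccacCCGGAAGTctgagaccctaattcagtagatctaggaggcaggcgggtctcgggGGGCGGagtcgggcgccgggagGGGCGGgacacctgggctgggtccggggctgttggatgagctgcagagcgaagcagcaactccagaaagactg
Slc15a2: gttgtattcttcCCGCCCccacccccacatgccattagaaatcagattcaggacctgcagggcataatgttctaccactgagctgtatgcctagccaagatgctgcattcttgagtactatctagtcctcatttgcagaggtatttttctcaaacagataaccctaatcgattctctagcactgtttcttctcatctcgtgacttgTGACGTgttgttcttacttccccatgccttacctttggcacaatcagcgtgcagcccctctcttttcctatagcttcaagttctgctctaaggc
The Prokr2 window held GC boxes at -45 and -23, an ETS motif at -98 and an E-box at -153. The Slc15a2 window held a GC box at -238 on the other strand and a CRE core at -44. Neither window held the MEIS or the homeodomain letters. Of 32851 start regions of this length, 35.7% held a GC box, 16.3% the E-box, 7.51% the CRE core, 3.89% the ETS motif, 19.2% the MEIS motif and 5.29% the homeodomain motif. Thus the GC box was the 1 motif present in both windows, and it is also the most common. The windows differed in composition, with 12 CpG and 59% GC for Prokr2 against 5 CpG and 46.3% GC for Slc15a2.

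The level of a gene is given in RPM, the count of read pairs scaled to the mapped pairs of the cell. A pooled RPM sums the read pairs over the cells of a group, and cells above 10 RPM were counted as positive. Mapped pairs per cell ranged from 3707601 to 15840130 with a median of 9463033. Intervals are exact 95% intervals (Poisson for levels, binomial for shares) and cover counting error only. Each age was 1 pool of animals, so each group is 1 sample, there are no replicates, and no test was made between groups. E18 and P2 cortices were dissociated in warm medium and P5 cortices at room temperature, so age and dissociation cannot be told apart in comparisons of P5 with E18 or P2. E18 and P2 shared the procedure. At least 3 of 6 IN markers (Dlx1, Dlx2, Dlx5, Dlx6, Gad1, Gad2) were above 10 RPM in 61 of 82 cells at E18, in 14 of 22, 14 of 31 and 7 of 13 cells of P2 types 1, 2 and 3, and in 32 of 34, 17 of 19 and 17 of 22 at P5. Dlx2 was at 0 in P2 type 3.

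Prokr2 was rare at E18 and high in type 1 INs at both postnatal ages. At E18, 7 of 82 cells (8.54%, 3.50 to 16.8) were above 10 RPM and the pooled level was 8.37 RPM (8.17 to 8.57), with a lowest cell at 0, a median of 0 and a highest cell at 359 RPM. In type 1 INs at P2, 7 of 22 cells (31.8%, 13.9 to 54.9) were above 10 RPM and the pooled level was 209.3 RPM (207.4 to 211.2). In type 1 INs at P5, 18 of 34 cells (52.9%, 35.1 to 70.2) were above 10 RPM and the pooled level was 184.6 RPM (183.2 to 186.04). The share of cells was thus higher at P5 than at P2 with overlapping intervals, while the pooled level was slightly lower.

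Single cells carried much of the Prokr2 signal. The 7 positive cells of P2 type 1 stood at 1529, 1262, 1008, 452, 242, 30.4 and 16.8 RPM, and the median of the 22 cells was 0.310 RPM. The 18 positive cells of P5 type 1 ran from 66.3 to 1192 RPM with a median of 198.6 RPM, and the median over all 34 cells was 68.8 RPM. Prokr2 was close to all or none in this type: the 16 cells at or under 10 RPM reached at most 3.34 RPM, and the count of positive cells was 18 at thresholds of 5, 10 and 50 RPM alike. Without the highest cell the pooled level was 143.9 RPM in P2 type 1 and 154.4 RPM in P5 type 1.

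**Figure D1:**
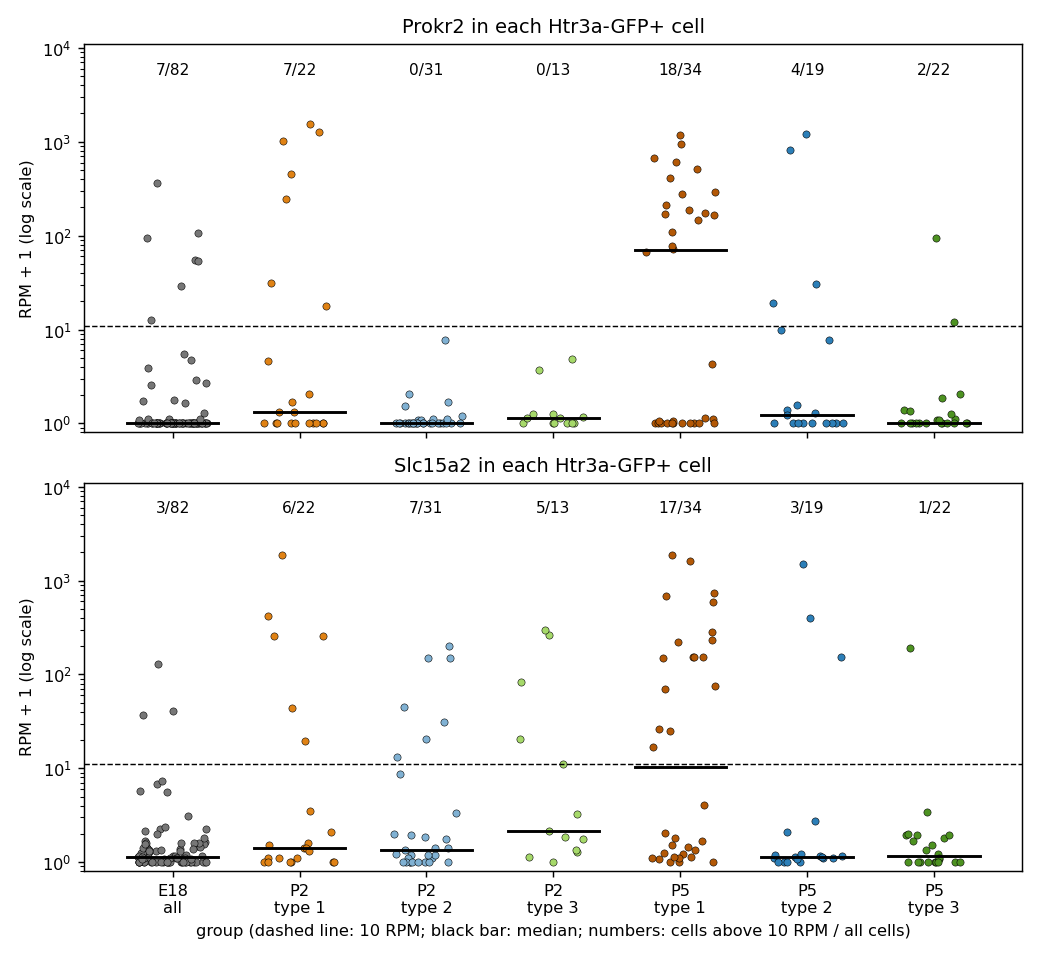
Prokr2 (top) and Slc15a2 (bottom) in each cell, as RPM + 1 on a log axis, by age and type. Each point is a cell, the black bar is the median of the group, the dashed line is 10 RPM and the numbers give cells above it. Prokr2 cells above the line sit mostly in type 1 at both ages, with none of 31 and none of 13 in P2 types 2 and 3, while Slc15a2 cells above the line occur in all 3 types at P2.

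In the other types Prokr2 was found above 10 RPM at P5 alone, with overlapping intervals between the ages. At P2 no type 2 cell (0 of 31, which allows a share of up to 9.68%) and no type 3 cell (0 of 13, up to 23.1%) was above 10 RPM, and the pooled levels were 0.351 and 0.672 RPM. At P5, 4 of 19 type 2 cells (21.1%, 6.05 to 45.6) and 2 of 22 type 3 cells (9.09%, 1.12 to 29.2) were above 10 RPM. All 7 Prokr2 cells at P2 were therefore type 1, against 18 of 24 at P5. The pooled level of P5 type 2, 118.4 RPM (116.8 to 119.96), came from 2 cells at 1210.5 and 813 RPM, while the other 2 cells stood at 29.2 and 18.1 RPM. The cell at 813 RPM also held the astrocyte genes Gfap at 139.4 RPM and Aldoc at 34.6 RPM, with Slc1a3 at 1.21 RPM. In P5 type 3 the pooled level was 5.33 RPM and 1 cell at 93.4 RPM held 89.96% of the read pairs.

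Expressed as a ratio, Prokr2 in P5 type 1 was 22.1 times its E18 level, a log2 fold of 4.31 with 1 RPM added to both sides. This contrast chose the gene. Of the genes that passed 10 RPM in 25% or more of the cells on either side, 2.07% were at least 4-fold (log2 of 2) higher in P5 type 1 than at E18 with no test, and nothing is read from the place of the 2 genes in that count. Over all 75 P5 cells, types together, Prokr2 was 14.7 times its E18 level (123.04 RPM), and over all 66 P2 cells 9.11 times (76.2 RPM). At P2 the log2 fold of type 1 against types 2 and 3 was 7.21, with 10 RPM in place of 1 RPM added 4.40, and as a mean over cells of log2(RPM + 1) 2.53. Prokr2 entered that comparison through its type 1 cells alone. There 4.73% of genes were higher and 9.59% lower by a log2 fold of at least 2. At P5 the same contrast gave 1.52, where 5.76% of genes were past the fold upward and 5.28% downward and Prokr2 was past neither. Prokr2 too entered here through type 1, whose level chose it, and nothing is read from its place. Without the highest cell of types 2 and 3 the P5 value was 2.81, and within library sets B, C and D it was 6.75, 4.77 and 1.90.

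Slc15a2 was lower still at E18 and reached the highest level of the 2 genes in type 1 at P5. At E18, 3 of 82 cells (3.66%, 0.761 to 10.3) were above 10 RPM, at 128.01, 39.7 and 35.95 RPM, and the pooled level was 2.46 RPM (2.36 to 2.57). In P5 type 1, 17 of 34 cells (50%, 32.4 to 67.6) were above 10 RPM and the pooled level was 246 RPM (244 to 247). Those 17 cells ran from 15.9 to 1883 RPM with a median of 152.8 RPM, while the other 17 reached at most 3.02 RPM. The median over the 34 cells, 9.43 RPM, lies in that gap. Without the cell at 1883 RPM the pooled level was 179.9 RPM.

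At P2 Slc15a2 was found in all 3 types. The shares above 10 RPM were 6 of 22 cells in type 1 (27.3%, 10.7 to 50.2), 7 of 31 in type 2 (22.6%, 9.59 to 41.1) and 5 of 13 in type 3 (38.5%, 13.9 to 68.4). These intervals overlap, and type 1 had the middle share. The pooled level was highest in type 1, at 135.9 RPM against 21.3 RPM in type 2 and 54.9 RPM in type 3, but a single type 1 cell at 1863 RPM held 63.1% of the type 1 read pairs. Without it type 1 stood at 52.6 RPM, and the log2 fold against types 2 and 3 went from 2.22 to 0.86. As a mean over cells of log2(RPM + 1) the difference was 0.33.

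At P5 the share was highest in type 1. Slc15a2 was above 10 RPM in 3 of 19 type 2 cells (15.8%, 3.38 to 39.6) and in 1 of 22 type 3 cells (4.55%, 0.115 to 22.8). The interval of type 1 lies apart from that of type 3 and overlaps that of type 2. These intervals cover counting error within 1 pool, and the type 1 level chose the gene, so nothing is read from the gap. The pooled level in type 3 went from 54.9 RPM (P2) to 9.53 RPM (P5), but without the highest cell these were 33.7 and 0.417 RPM, and that 1 cell held 95.8% of the P5 read pairs. In type 1 the P5 level was 1.81 times that at P2, and without the highest cells the levels were 179.9 and 52.6 RPM. The pooled level of 107.7 RPM in P5 type 2 rested on cells at 1506, 399.7 and 153.2 RPM. The cell at 1506 RPM also held Aldoc at 6319.9 RPM, Slc1a3 at 6257 RPM and Gfap at 739.6 RPM, all genes of astrocytes, and without it type 2 stood at 26.8 RPM. The cell at 153.2 RPM, which is the Prokr2 cell at 813 RPM, held Gfap at 139.4 RPM and Aldoc at 34.6 RPM.

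Against E18, Slc15a2 in P5 type 1 stood at 99.8 times its E18 level, a log2 fold of 6.15. Like that of Prokr2, this value chose the gene. All P5 cells together stood at 61.4 times the E18 level (151.3 RPM). Against P5 types 2 and 3 the log2 fold was 2.01. Slc15a2 entered this comparison through its type 1 cells alone, whose level chose it, so nothing is read from its place among the genes past the fold. Without the highest cell of type 1 it was 1.57, without that of types 2 and 3 it was 3.68, and within library sets B, C and D it was 5.43, 3.01 and 1.36. Genes past 10 RPM in 50% or more of P5 type 1 cells, a cut that Slc15a2 met exactly, were ordered by fold over E18. Among these, the genes next below the 2 were Tiam2, an activator of Rac, at 3.98, Meis2 at 3.82 and Meis1 at 3.68. Zeb1, just outside at 47.1% of cells, was at 3.89.

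**Figure D2:**
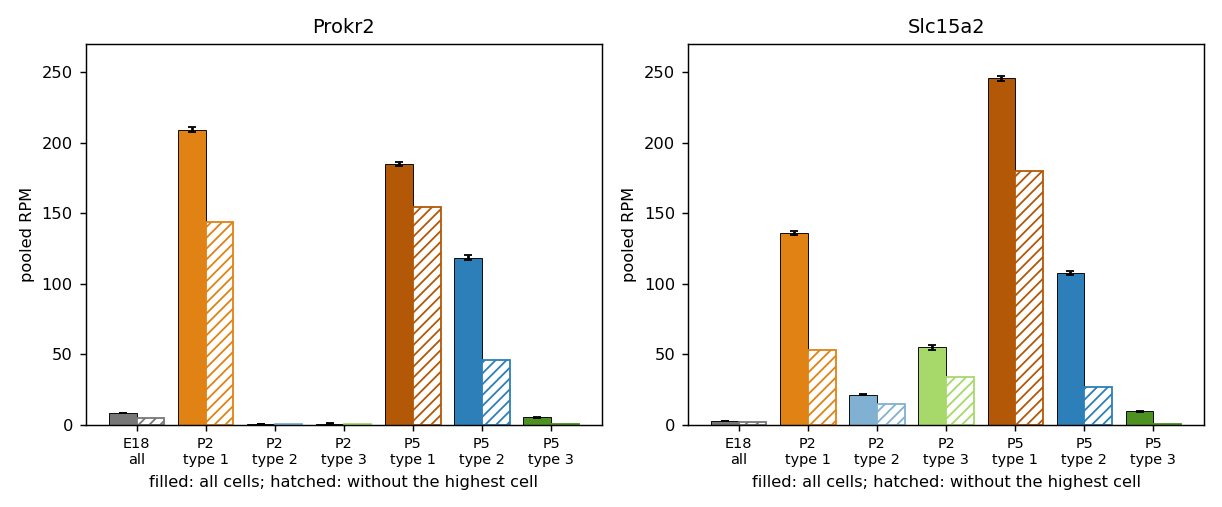
Pooled RPM of Prokr2 (left) and Slc15a2 (right) in the 7 groups, from 0 on a linear axis. Filled bars use all cells with exact 95% Poisson intervals, and hatched bars leave out the cell with the highest RPM of that group. Without that cell Slc15a2 in P2 type 1 stood at 52.6 in place of 135.9 RPM, and Prokr2 in P5 type 2 at 45.8 in place of 118.4 RPM.

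Ordered by share, Prokr2 ran from P5 type 1 (52.9%) through P2 type 1, P5 type 2, P5 type 3 and E18 to P2 types 2 and 3. Slc15a2 ran from P5 type 1 (50%) through P2 types 3, 1 and 2 to P5 types 2 and 3 and E18 (3.66%). In both orders the intervals of every pair of neighbours overlap. These intervals cover counting error only and each group is 1 sample, so both orders are descriptions. Counts of at least 1 read pair gave a different picture: after each cell was thinned to the lowest depth, Prokr2 was found in 61.8% of P5 type 1 cells and in 38.5% of P2 type 3 cells, where the highest cell had 3.86 RPM. Slc15a2 was found this way in 51.2% of E18 cells (65.9% before thinning). Reads at such low levels thus occurred in all groups, and their source was not tested.

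The labels carry a number whose meaning is not stated, and its 4 values are called library sets A to D here. All P2 cells are set A, so at P2 set and age cannot be told apart. E18 and P5 cells fall in sets B, C and D. Prokr2 in P5 type 1 was above 10 RPM in 3 of 11 cells of set B (118.1 RPM), 7 of 11 of set C (107.1 RPM) and 8 of 12 of set D (318 RPM). The matching E18 counts were 2 of 48 (2.52 RPM), 3 of 9 (21.4 RPM) and 2 of 25 (15.5 RPM). The log2 fold from E18 to P5 type 1 was above 0 in all 3 sets, at 5.08, 2.27 and 4.27, and smallest in set C, where a larger part of the 9 E18 cells held Prokr2. This contrast chose both genes from the same cells, so its direction within the sets is a description. Slc15a2 positive cells in P5 type 1 numbered 6 of 11, 4 of 11 and 7 of 12, with 54.6, 507 and 177.3 RPM, and the E18 cells 2 of 48, 0 of 9 and 1 of 25. Its log2 folds were 3.81, 7.90 and 5.94. Set C held the Slc15a2 cells at 1883 and 1630 RPM, and set D had the highest Prokr2 level.

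**Figure D3:**
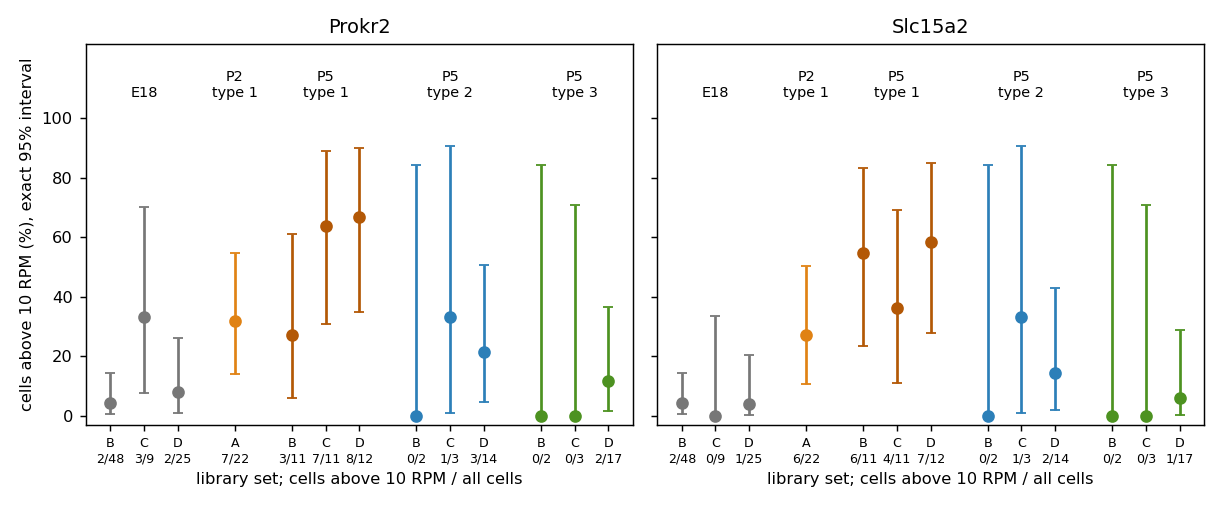
Share of cells above 10 RPM for Prokr2 (left) and Slc15a2 (right) by group and library set, in percent with exact 95% binomial intervals. The numbers on the horizontal axis are cells above 10 RPM and all cells. In sets B, C and D alike, P5 type 1 lies above E18 for both genes, with wide and in part overlapping intervals. This contrast chose the genes from the same cells, so the direction within the sets is a description.

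Although both genes marked about 1 in 2 of the P5 type 1 cells, they were mostly found in different cells. Of the 34 cells, 13 were above 10 RPM for Prokr2 alone, 12 for Slc15a2 alone, 5 for both (14.7%, 4.95 to 31.1) and 4 for neither, so 30 (88.2%, 72.5 to 96.7) held at least 1 of the genes. Slc15a2 was above 10 RPM in 27.8% (9.69 to 53.5) of the 18 Prokr2 cells and in 75% (47.6 to 92.7) of the 16 other cells. These intervals still overlap. In P2 type 1 the matching shares were 28.6% of 7 and 26.7% of 15 cells, and in P5 type 2 the larger share was in the Prokr2 cells, 50% of 4 against 6.67% of 15. The same count per library set gave 1 of 11, 1 of 11 and 3 of 12 cells with both genes, and the cells with neither numbered 3, 1 and 0.

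The 5 cells with both genes held each gene well above the threshold. Their Prokr2 and Slc15a2 levels were 1192 and 233, 516 and 152.8, 107.003 and 730.5, 76.4 and 151.8, and 66.3 and 68.2 RPM, and all 5 held Meis2 above 10 RPM. The count of cells with both was also 5 at thresholds of 5 and 50 RPM, 6 at 1 RPM and 3 at 100 RPM. With at least 1 read pair as the threshold, however, 58.8% of cells held both genes. Over the 66 P2 and 75 P5 cells the phi coefficient of the 2 genes, a correlation of presence above 10 RPM, was 0.0163 (a description over cells that share the types, the ages and the library sets). The median depth of P5 type 1 cells was 10163472 mapped pairs with Prokr2 and 9238116 without, and 9434212 with Slc15a2 and 11249623 without. The other groups had few cells with both genes: 2 of 22 in P2 type 1, 2 of 19 in P5 type 2 and 1 of 82 at E18.

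**Figure D4:**
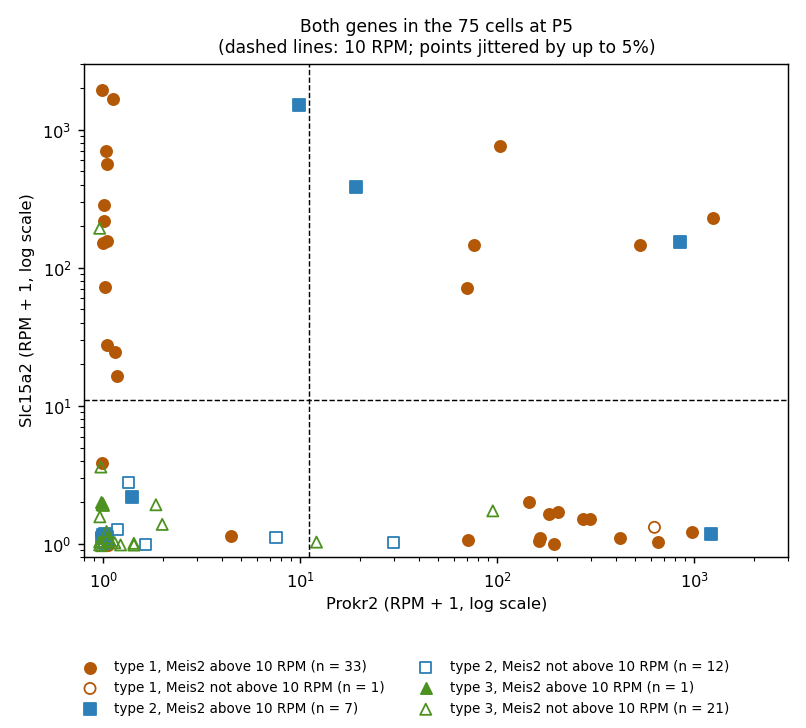
Prokr2 against Slc15a2 in the 75 cells at P5, as RPM + 1 on log axes, with shape and colour for the type and filled symbols for cells with Meis2 above 10 RPM. Dashed lines mark 10 RPM. Type 1 cells line both axes, with 5 of 34 above both lines and 4 of 34 below both, and 4 of the 5 type 2 cells above a line are filled.

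Meis2, the homeobox factor that marks type 1 INs, was most often present in the cells with Prokr2 at both ages and with Slc15a2 at P5. The authors drew the types from these counts, Meis2 included, so Meis2 and type are not independent. At P5 Prokr2 was above 10 RPM in 20 of 41 Meis2 cells (48.8%, 32.9 to 64.9) and 4 of 34 other cells (11.8%, 3.30 to 27.5). Slc15a2 was above 10 RPM in 20 of the 41 Meis2 cells and in 1 of the 34 others (2.94%, 0.0744 to 15.3). Either gene was present in 33 of 41 Meis2 cells (80.5%, 65.1 to 91.2) and in 5 of 34 others (14.7%, 4.95 to 31.1). Of the 41 Meis2 cells 33 were type 1, the group whose levels chose the genes, so these shares are descriptions.

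At P2 the 2 genes differed. Prokr2 was above 10 RPM in 6 of 17 Meis2 cells (35.3%, 14.2 to 61.7) and in 1 of 49 other cells (2.04%, 0.0517 to 10.9). Slc15a2 was above 10 RPM in 3 of 17 Meis2 cells (17.6%, 3.80 to 43.4) and in 15 of 49 others (30.6%, 18.3 to 45.4), overlapping intervals with the higher share outside Meis2. Within P2 type 1 it was found in 2 of 13 Meis2 cells and 4 of 9 others. In P5 type 2, 7 of 19 cells held Meis2, and among these 3 held Prokr2 and 3 Slc15a2. Of the 12 type 2 cells without Meis2, 1 held Prokr2 and 0 held Slc15a2 (up to 25%). With Meis2 cells removed from types 2 and 3, a choice made after seeing the values, the P5 log2 folds of type 1 became 5.16 for Prokr2 and 5.16 for Slc15a2.

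Other factors of olfactory bulb INs were counted in P5 type 1 cells with and without the 2 genes. Pbx3, a partner of MEIS proteins, was above 10 RPM in 13 of 18 Prokr2 cells (72.2%, 46.5 to 90.3) and 8 of 16 cells without Prokr2 (50%, 24.7 to 75.3). For Slc15a2 the higher share was in the cells without it, with 8 of 17 cells (47.1%, 22.98 to 72.2) against 13 of 17 without it (76.5%, 50.1 to 93.2). Sall3, a zinc finger factor, was above 10 RPM in 4 of 18 Prokr2 cells and in 0 of 17 Slc15a2 cells, against 5 of the 17 cells without Slc15a2. All these pairs of intervals overlap. Sp8 and Tshz1 were in nearly every type 1 cell. Sp8 was present in 16 of 18 Prokr2 cells and 16 of 16 others, and Tshz1 in 17 of 18 and 14 of 16. Etv1 was above 10 RPM in 11 of 18 Prokr2 cells (61.1%) and 10 of 16 others (62.5%), and in 13 of 17 Slc15a2 cells (76.5%) and 8 of 17 others (47.1%). In P2 type 1, Etv1 was above 10 RPM in 5 of 7 Prokr2 cells and in 4 of 15 others, again with overlapping intervals.

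CGE factors were rarer in type 1 than in type 2. Of the 4 CGE factors (Prox1, Nr2f2, Npas3 and Maf), at least 3 were above 10 RPM in 2 of 18 Prokr2 cells and 4 of 17 Slc15a2 cells of P5 type 1, against 11 of 19 cells of P5 type 2. At P2 the 2 genes differed here too: the summed CGE factors had a median of 1.64 RPM in the 7 Prokr2 cells and 1157 RPM in the 18 Slc15a2 cells, 12 of which were of types 2 and 3. At E18, where 11 of 82 cells held Meis2, 2 of the 7 Prokr2 cells and 0 of the 3 Slc15a2 cells were among them.

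Since PEPT2 is known from astrocytes and choroid plexus, the markers of other cell types were counted in the same cells. No cell of any group held 3 of the 8 choroid plexus or 3 of the 6 ependymal genes above 10 RPM, and Ttr, Folr1, Otx2, Aqp1 and Clic6 had no read pair in any cell. The other choroid plexus genes, Kl, Kcnj13 and Enpp2, did have read pairs. The summed choroid plexus list reached 1385 RPM in P2 type 1, 624 RPM in P5 type 1 and 1170 RPM in P5 type 2. Its medians there were 2.79, 2.29 and 3.33 RPM. Of the 12 astrocyte or radial glia genes, at least 3 were above 10 RPM at P5 in 1 of 34 cells of type 1, 4 of 19 of type 2 and 2 of 22 of type 3, and in none of the 66 P2 cells. The summed astrocyte list ranged from 1.12 to 1454 RPM in P5 type 1 and up to 19187 RPM in type 2, and in type 1 Aldoc, Gja1, Aldh1l1 and Hes5 were at 0 while Slc1a3 was above 10 RPM in 9 of 34 cells and Sox9 and Fabp7 in 5 each. Of those 9 Slc1a3 cells 6 were Prokr2 cells, with Slc1a3 up to 896 RPM, and 4 were Slc15a2 cells, with Slc1a3 up to 1392 RPM in the cell with Slc15a2 at 1630 RPM. The median of the summed list was 8.56 RPM in the Slc15a2 cells of P5 type 1 and 29.97 RPM in the others. It was 847 against 173.8 RPM in P5 type 2 and 73.9 against 15.6 RPM over all P2 cells, and for Prokr2 it was 194.7 against 4.01 RPM at E18, 96.9 against 16.6 RPM over all P2 cells and 10.95 against 20.4 RPM in P5 type 1. The part of these genes in the levels of the members was not tested. Without the cells that held 3 genes of another list, Slc15a2 in P5 type 1 stayed at 246 RPM (16 of 33 cells) but went to 22.5 RPM (1 of 15) in type 2 and to 0.434 RPM (0 of 20) in type 3. The log2 fold of type 1 against the other types was then 4.37. Prokr2 then stood at 188.9 RPM in type 1 and 98.4 RPM in type 2. At E18, 12 cells held excitatory neuron or astrocyte genes, 2 of the 7 Prokr2 cells among them, and without those 12 Prokr2 stood at 7.397 RPM and Slc15a2 at 2.76 RPM.

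Per kb of exon, the ligands and relatives of the 2 genes were lower in type 1 than the genes themselves. For the prokineticin system, Prok1 had no read pair in any cell. Prok2, the ligand described in the olfactory bulb, was highest in P5 type 3 (18.9 RPM, 3 of 22 cells above 10 RPM) and type 2 (17.4 RPM, 5 of 19), and stood at 6.42 RPM (2 of 34) in type 1 and 3.24 RPM (5 of 82) at E18. Prokr1, the sister receptor, never passed 0.434 RPM in a group, and Mrap2, an accessory protein of these receptors, reached 9.30 RPM in P2 type 2. Prokr2 in P5 type 1 (23.3 RPM per kb) stood above the ligand Prok2 in the same cells (3.35 RPM per kb). In P5 type 3 the order was the opposite, with 0.673 RPM per kb for the receptor and 9.85 for the ligand, as it was at E18 (1.06 and 1.69) and in P2 types 2 (0.0443 and 4.59) and 3 (0.0848 and 3.45).

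Among the SLC15 peptide transporters, Slc15a2 had the highest level per kb of exon in type 1 at both ages, 18.5 RPM per kb at P2 and 33.4 at P5. Slc15a1, the intestinal transporter PEPT1, ranged from 1.12 to 4.23 RPM. Slc15a3, a transporter of endosomes and lysosomes, reached 0.616 RPM, and Slc15a5 had no read pair. Slc15a4, which also works in endosomes and lysosomes, stood at 40.97 RPM in P2 type 1, from 1 cell above 10 RPM, and at 7.08 RPM or less elsewhere. Slc15a4 in P2 type 1 had 7.71 RPM per kb, and in P5 type 1 Slc15a1 had 0.547 and Slc15a4 0.219 RPM per kb.

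**Figure D5:**
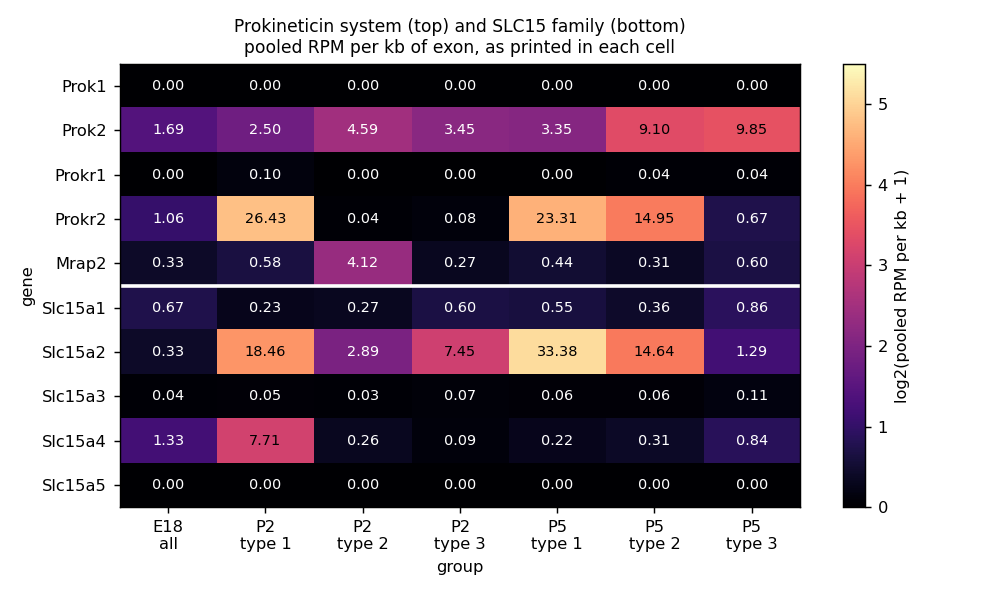
Pooled RPM per kb of exon for the 5 genes of the prokineticin system (top) and the 5 SLC15 genes (bottom) in the 7 groups. The number in each field is the level and the colour its log2 with 1 added. Prokr2 and Slc15a2 stand out in type 1 at P2 and P5 and in P5 type 2, while Prok2 is highest in P5 types 2 and 3.

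Lists of genes around the 2 members, chosen with earlier results of these data known, were compared between P5 type 1 and E18. Over all 3961 genes compared the median log2 fold was -0.13, and 2.07% were higher and 5.86% lower by at least 2. Of 13 olfactory bulb IN factors, 9 were expressed highly enough to compare, 6 of them passed the fold upward and none downward, with a median of 2.63. The largest were Meis2 (3.82), Sp8 (3.52), Tshz1 (3.09) and Pbx3 (2.85). The authors described several of these factors in type 1 from the same cells, so this count is not independent evidence. Within an age, 6 of 9 of these factors were past the fold upward in P5 type 1 against types 2 and 3 (median 2.21, with 0.20 over all genes) and 5 of 8 at P2 (median 2.57, with -0.09 over all genes). Against E18 and at P2 most of the factors past the fold entered through type 1 alone, the side where they are high, so these counts are descriptions. Below the receptor, 4 of 11 genes of the Gq pathway could be compared and 1 passed, Plcb4, a phospholipase C that Gq activates, at 2.76 (18 of 34 cells in P5 type 1 and 8 of 82 at E18). Plcb4 entered through type 1 alone, the side where it is high, so this call is a description. Gnaq, the alpha subunit of Gq itself, was at 0.22, Plcb1 at 0.73 and Gna11, another alpha subunit of this class, at -0.23. In P2 type 1 against E18, where 2.00% of all genes were higher and 12.8% lower by the same fold, none of 4 Gq genes was higher and 2 were lower, Plcb1 at -5.27 and Gna11 at -2.84. Plcb1 and Gna11 entered through E18 alone, the side where they are high, so these calls are descriptions as well. Of 16 genes that, like PROKR2, are mutated in human GnRH deficiency, 1 could be compared, Chd7, a chromatin remodeller, at 2.39 and in 19 of 34 cells.

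Few genes around the transporter were expressed highly enough to compare. Of 15 enzymes that make or cleave small peptides, only Npepps, a cytosolic aminopeptidase, was expressed highly enough, at 0.52. None of 11 proton exchangers and their binding partners was. Of 19 amino acid transporters 6 could be compared, 1 higher and 1 lower, where 2.07% of all genes were higher and 5.86% lower. Slc1a3, a glutamate transporter that is also on the astrocyte list, was at 2.21 (9 of 34 and 8 of 82 cells), and Slc3a2, the heavy chain of amino acid exchangers, was at -2.20 (6 of 34 and 49 of 82 cells). Slc1a3 entered through P5 type 1 alone and Slc3a2 through E18 alone, the sides where they are high. These calls are therefore descriptions.

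The genes most like the members in pattern were different for the 2 genes. Over the 7 groups, the pooled levels most correlated with Prokr2 among 3122 genes were 2610507B11Rik (r = 0.96), the cyclin Ccnd2 (0.95), Scaf11 (0.95), Pax6 (0.94) and Tiam2 (0.93). For Slc15a2 they were Rtn4 (0.90), Sema4b (0.89), Sp8 (0.88), Taf1 (0.87) and Dlx5 (0.86). Rtn4 ran from 128.4 to 259.8 RPM and Sema4b from 10.9 to 32.1 RPM, both highest in P5 type 2. Slc15a2 itself ran from 2.46 to 245.7 RPM and was highest in P5 type 1. Prokr2 and Slc15a2 correlated with each other at 0.64. Each r rests on 7 values, among them the E18 and P5 type 1 levels that chose the genes. Cell by cell over the 66 P2 and 75 P5 cells, with 31 Prokr2 and 39 Slc15a2 cells, Prokr2 was most alike to Epb41l3 (phi 0.49, 23 cells in common), Meis1 (0.49, 19), Meis2 (0.46, 26), Etv1 (0.43, 20) and Plcb4 (0.41, 18). Slc15a2 reached lower values, with Pls3 (0.34, 17), the predicted genes Gm37758 (0.34, 24), Gm29562 (0.33, 31) and Gm38070 (0.29, 14), and Mrpl55 (0.29, 12), and Meis2 came at rank 31 of 6337 (0.22). The cells share ages, types and library sets, so these values are descriptions.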

How the data were processed

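Per the labels and the study's methods, the authors aligned read pairs to GRCm38 (Ensembl annotation) with TopHat2, counted them per gene with HTSeq 0.6.1, and deposited the counts of each single cell on 43629 genes without normalization. Counting by strand is not given in the sources used here. The deposited coefficient of each cell turns a count into RPM, and mapped pairs are its inverse. Cells were grouped by the age and type in the labels. Pooled RPM, shares above 10 RPM, exact 95% intervals and log2 folds with 1 RPM added were computed. A gene entered a comparison if it passed 10 RPM in 25% or more of the cells on either side. A share of 0 carries the limit of 3 cells. Each group is 1 sample, so no test was made. No doublet caller was run, and the authors had looked at the capture sites by microscope. The members and gene lists were chosen with earlier results of these data known. Genes named besides the members are all those of the prokineticin and SLC15 lists, at most 4 examples of each further list with the largest change from E18, the 5 most similar genes by each measure and the 3 next largest rises. The Meis2 and Zeb1 values and the markers within positive cells were chosen after values were seen. Names (42462 identifiers), exons and positions came from GENCODE M21 on GRCm38, and start regions of 2 of 2 genes from RefSeq. Alternatives changed library size, pseudocount, threshold, depth, single cells, library sets and gene filters. Scaling factors came from edgeR 4.0.16 and DESeq2 1.42.0 under R 4.3.3, and all else from pandas 2.3.3, scipy 1.17.1, numpy 2.4.6 and matplotlib 3.10.9 under Python 3.11.15. Tested on simulated data (P5 type 1 against E18, 43629 genes), the fold calculation returned the right direction for 100% of 200 genes given a known change.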

Additional observations from a re-analysis of the deposited data

How the results depend on the processing

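Each group is 1 pool of animals and 1 sample, so the spread between animals was not measured. No paired analysis was possible because no replicate number of the labels links samples of different groups and each group is 1 sample. A comparison by library set was possible for E18 and P5, which share sets B, C and D, and its values are given here. The 6 log2 folds of Prokr2 and Slc15a2 were recomputed under 70 alternatives in all. All 70 values were above 0, from 0.33 to 8.65, and 53 were at least 2. For each gene 12 of these values were of P5 type 1 against E18. That contrast chose the genes, so nothing is read from the sign or size of those values. The cause of each move was not tested.

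For Prokr2 in P5 type 1 against E18 (4.31), total counts on genes as library size gave 4.46, edgeR TMM 4.62 and DESeq2 size factors 4.59. A pseudocount of 0.1 RPM gave 4.45 and of 10 RPM 3.41, and the mean over cells of log2 values gave 3.59. Leaving out the highest type 1 cell gave 4.05 and the highest E18 cell 5.09. Set B alone gave 5.08 and set C 2.27, and leaving out cells with another marker list gave 4.499. Against P5 types 2 and 3 (1.52) the values in the same order were 1.32, 1.44 and 1.40 for scaling, 1.40 for 10 RPM, 3.04 for the mean over cells, and 1.27 and 2.81 without the highest cells. Sets B, C and D gave 6.75, 4.77 and 1.90, leaving out other marker cells 1.90, and leaving out Meis2 cells of types 2 and 3, chosen after seeing the data, 5.16. At P2 (7.21), total counts gave 7.87, TMM 7.95, the pseudocounts 8.65 and 4.40, the mean over cells 2.53, and leaving out the highest cells 6.67 and 7.42.

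For Slc15a2 against E18 (6.15) the scalings gave 6.43, 6.56 and 6.30, the pseudocounts 6.58 and 4.36, the mean over cells 3.37, and leaving out the highest cells 5.71 and 6.61. Sets B, C and D gave 3.81, 7.90 and 5.94, and leaving out other marker cells 6.04. Against P5 types 2 and 3 (2.01) the scalings gave 1.81, 1.93 and 1.89, 10 RPM 1.87, the mean over cells 2.84, and leaving out the highest cells 1.57 and 3.68. Sets B, C and D gave 5.43, 3.01 and 1.36, leaving out other marker cells 4.37, and leaving out Meis2 cells 5.16. At P2 (2.22) the scalings gave 2.30, 2.38 and 2.37, 10 RPM 1.92, the mean over cells 0.33, leaving out the highest cells 0.86 and 2.47, and leaving out Meis2 cells 2.29.

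Each scaling also shifts the folds of all genes before a pseudocount is added. For P5 type 1 against E18 the shift was 0.26 with TMM and 0.36 with DESeq2 size factors, against P5 types 2 and 3 it was -0.21 with total counts and -0.12 with DESeq2, and for P2 type 1 against types 2 and 3 it was 0.14 with TMM and 0.16 with DESeq2.

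The Prokr2 share in P5 type 1 was 27.3% in set B. With at least 1 read pair as the threshold the Slc15a2 share was 91.2% and 70.6% after thinning, and the share with both genes 58.8% and 35.3%. The count of genes past the fold depended on the filter. For P5 type 1 against E18 it was 82 higher and 232 lower of 3961, 30 and 40 of 1568 with at least 50% of cells, and 776 and 2290 of 23427 with no filter. Against P5 types 2 and 3 it was 5.76% and 5.28% of 3940, 48 and 47 of 1503, and 1353 and 2095 of 21586. For P2 type 1 against types 2 and 3 it was 4.73% and 9.59% of 3211, 22 and 46 of 1061, and 1466 and 2993 of 21465. Against E18 it was 76 and 486 of 3791, 10 and 92 of 1447, and 965 and 3468 of 23342.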

Other observations

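On the deposited t-SNE coordinates, each E18 cell was given the majority type of its 5 nearest postnatal cells, at any distance. The paper's t-SNE showed an E18 group besides the 3 postnatal types, so the nearest type need not lie close. For the 7 E18 cells with Prokr2 the nearest type was type 1 in 2 and type 2 in 5. For the 75 E18 cells without Prokr2 it was type 1 in 14 and type 2 in 59. For the 3 E18 cells with Slc15a2 it was type 2 in 2 and type 3 in 1. The coordinates were made from the same counts, so these are descriptions.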
